A study of Mus musculus with 12 samples.

Results

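Wfdc2 and Krt23 are epithelial genes that were followed through mouse liver with and without the histone deacetylase Hdac3. Each had a single probe that could be given its symbol, out of 33012 probes in all, and further probes of either gene may lie among those without one. The probes (887546 for Wfdc2 and 753061 for Krt23) were found by matching the transcript accession of every probe to RefSeq, which gave a symbol to 311 probes of 305 genes. The pair was chosen with results of these arrays known: Wfdc2 was selected on its measured difference between Hdac3-null and control liver at postnatal day 28 (P28), and Krt23 as a marker of bile duct cells. The P28 difference of Wfdc2 is therefore given as a description, with no test.

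Wfdc2 encodes a small secreted protein of the whey acidic protein family, a group that includes protease inhibitors, and it is made by the lining epithelia of the epididymis, airways and other ducts. Krt23 encodes a type I keratin, a subunit of the intermediate filaments of epithelial cells, and in liver it is known from bile duct and progenitor-like cells and from stressed hepatocytes. Hdac3 is the catalytic deacetylase of the NCoR and SMRT corepressor complexes, which hold target genes of nuclear receptors silent.

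Liver RNA came from C57B/6 mice aged 17 days (P17) or 28 days. Control livers were Hdac3 wild-type or heterozygous and expressed Albumin-Cre, a recombinase under a hepatocyte promoter, and the other livers are labelled Hdac3-null. The labels call the first control pool of each age wild-type, and the second P28 control pool wild-type or heterozygous. Each of the 4 groups held 2 pools of 5 mice and 3 arrays, because the first pool was hybridised in duplicate and the second pool once. Duplicate arrays were averaged, so n = 2 pools per group. The probe of Hdac3 itself is not analysed here, so the genotype rests on the labels.

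The 12 arrays fell into 3 sets of 4 that each shared a distribution of values: the second pools, the P17 first pools and the P28 first pools. Null and control liver of an age and pool number always lay in the same set, whereas the first pools of P17 and P28 lay in different sets. The scanner file listed for the second P28 null pool repeats the export of the first P28 pools, although its deposited values share the distribution of the second pools. Values of the fitted differences without that pool are given below. Duplicate arrays of a pool correlated with r = 0.965 to 0.980 over the probes above the detection level. That level, 892 units of normalized intensity or 9.80 on the log2 scale, was set so that the share of values under it equals the share of scanner readings with a signal-to-noise score under 3 (58.6%). It was passed by 12901 probes on every array of at least 1 group, among them Krt23 in all 4 groups and Wfdc2 in all but P28 control liver.

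The lists of markers gave almost no check of the cell types. Of 9 bile duct markers 1 had a named probe, and that was Krt23 itself. The count was 0 of 9 for progenitor and fetal hepatocyte markers, 0 of 6 for hepatocyte markers and 0 of 5 for macrophage markers. Probes without a symbol may include others of these genes. The names epithelial and progenitor thus describe what the genes are known for and were not tested in these livers. In whole liver RNA, more cells of a type and more RNA per cell cannot be told apart.

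At P28, Wfdc2 was high in every Hdac3-null array and low in every control array, and it was the difference for which the gene was picked. In P28 null liver the normalized intensity of Wfdc2 was 19241 and 18899 on the duplicate arrays of the first pool and 13171 in the second pool. In P28 control liver it was 813 and 443 on the duplicates and 1845 in the second pool. The lowest null array was thus far above the highest control array, and the groups did not overlap. Among 12851 probes above the detection level that had no missing value, the P28 null arrays all lay above the P28 control arrays for 15.9%.

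On the log2 scale, Wfdc2 averaged 13.95 ± 0.38 in P28 null and 10.04 ± 1.14 in P28 control liver (SD, n = 2 pools). The difference was 3.91 (SE 0.58), or 15.1-fold, with 4.99 in the first pools and 2.84 in the second. Of 33010 tested probes, 29 (0.0879%), Wfdc2 included, differed by as much or more in that direction. Among the probes above the detection level the share was 0.225%. Wfdc2 was picked on this difference, so its rank follows from the choice and is no test. In the comparison as a whole limma called 0.397% of probes. Those 131 calls became 246 with a replicate block by pool.

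The control level of Wfdc2 at P28 was near background on the duplicate arrays of the first pool, and 1 of 3 control arrays reached the detection level. With the 2 other arrays raised to that level, the fold was 12.4. Among the 4 scanner readings of Wfdc2 in the export of the P28 first pools, 2 had a signal-to-noise score under 3, the lowest 0.67 and the highest 50.97. The columns of that export name no sample, so these scores belong to no particular array here. In the other exports the scores of Wfdc2 ran from 6.63 to 40.45. The fold in the first pools thus rests on control arrays under the level, and that in the second pools on arrays above it.

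The deposited intensities, taken within 1 set of arrays and with no further normalization, differed in the same direction in the first and second pools, but by unlike folds. In the first pools at P28 the null arrays held 27.2 times the control intensity of Wfdc2. The lowest null over the highest control array of these duplicates gave 21.2. These control arrays were under the detection level after normalization, so the first-pool ratios have no exact size. In the second pools, with 1 array each, the ratio was 7.03. Without the P28 null second pool the log2 difference was 4.18, and leaving out 1 P28 pool at a time gave 3.10 to 4.72. The P17 pools do not enter this difference.

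**Figure D1:**
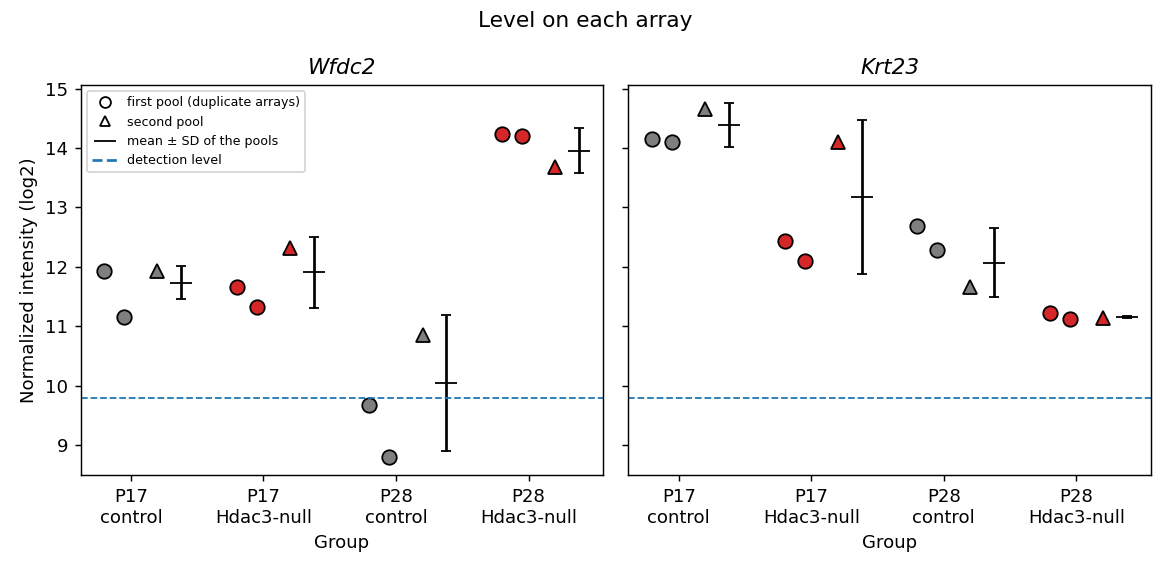
Normalized intensity on the log2 scale (y axis) of Wfdc2 and Krt23 on each of the 12 arrays, by group (x axis). Circles are the duplicate arrays of the first pool, triangles the second pool, bars the mean ± SD of the 2 pools, and the dashed line is the detection level at 9.80. Wfdc2 stands highest in P28 null and lowest in P28 control liver, and Krt23 stands highest in P17 control liver and lowest at P28.

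At P17, Wfdc2 had about the same level in both genotypes. In P17 control liver its normalized intensity was 3916 and 2279 on the duplicates and 3895 in the second pool. In P17 null liver it was 3230 and 2551 on the duplicates and 5132 in the second pool. The groups overlapped, and every array was above the detection level. The log2 means were 11.74 ± 0.27 in control and 11.91 ± 0.59 in null liver (SD, n = 2 pools), a difference of 0.17 (SE 0.58, 95% interval -1.19 to 1.53, limma, adjusted p = 1 over all probes).

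The P17 pools of Wfdc2 went opposite ways, by -0.06 in the first and 0.40 in the second. The sign of the difference turned without the first P17 control pool (-0.02) and without the second P17 null pool (-0.25). In this comparison 0.0454% of all probes were called, 15 in number and 5 with the replicate block by pool.

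The genotype difference of Wfdc2 was larger at P28 than at P17 by 3.74 on the log2 scale (SE 0.83), with 5.05 in the first pools and 2.44 in the second. It was 3.46 when the detection level stood in for lower control readings, and 4.01 without the second P28 null pool. This value contains the P28 difference that picked the gene, and it has no test of its own here. For this difference between ages of the genotype effect limma called 0% of the 33010 probes at an adjusted p under 0.05, while 1530 had an unadjusted p under 0.05. The replicate block by pool called 2.

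Between the ages, Wfdc2 was lower at P28 in control liver and higher in null liver, and since both differences share their P28 pools with the comparison that picked the gene, they are given with no test. In control liver the P28 minus P17 difference was -1.70 (SE 0.58), with -2.32 in the first pools and -1.08 in the second. When the detection level stood in for lower control readings, it was -1.41, so the first-pool value has no exact size. In null liver the difference was 2.05 (SE 0.58), with 2.73 and 1.36, and it was 2.31 without the second P28 null pool. After normalization the arrays of the ages did not overlap in either genotype, as for 15.5% of probes lower at P28 in control liver and 12.3% higher at P28 in null liver. The deposited intensities of control liver did overlap, with 2738 for the highest P28 array and 1874 for the lowest P17 array, but these arrays lay in different sets.

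The second pools lay in 1 set of arrays, so their deposited values can be set beside each other across ages. Wfdc2 was 2.09-fold lower at P28 than at P17 in the second control pools and 2.56-fold higher in the second null pools, of which the P28 one is the pool with the repeated scanner file. The control value depended on the P28 control pool used: the log2 difference was -0.89 without the first P28 control pool and -2.51 without the second, the latter against arrays under the detection level. By level the order of the groups was P28 null, P17 null, P17 control and P28 control. The P17 groups, 0.17 apart, did not differ beyond their spread. The other neighbours in this order were 2.05 and 1.70 apart, which are the differences between ages given above with no test.

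**Figure D2:**
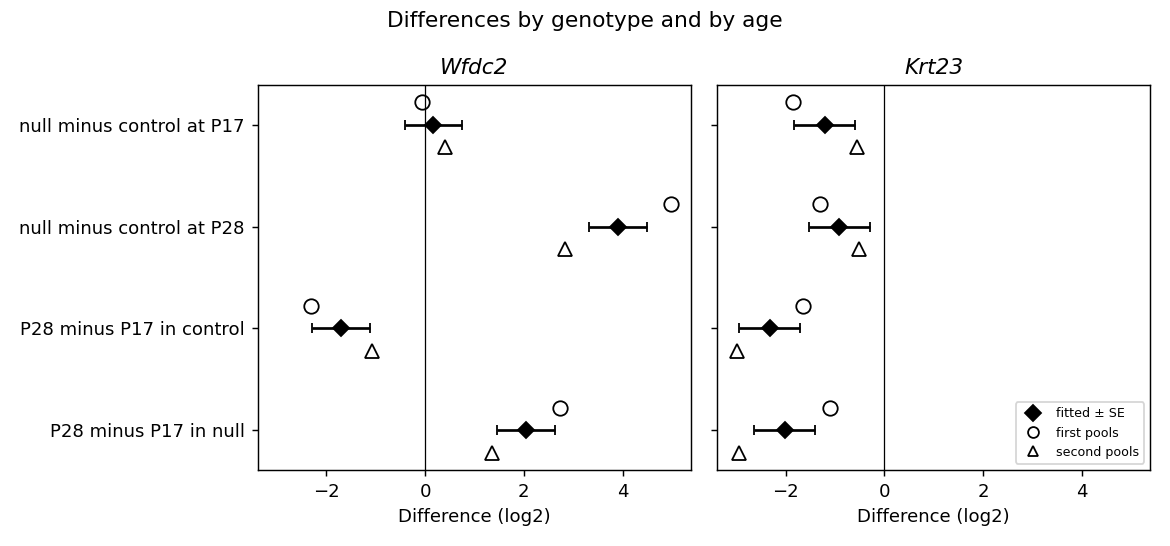
Differences on the log2 scale (x axis) of Wfdc2 and Krt23 for 4 comparisons (y axis). Diamonds with bars are the fitted value ± SE, circles the first pools and triangles the second pools. Wfdc2 lies at 3.91 for null minus control at P28 and near 0 at P17, while the Krt23 values all lie below 0.

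Krt23 was above the detection level on every array and had its highest level in young control liver. In P17 control liver its normalized intensity was 18283 and 17564 on the duplicates and 25786 in the second pool. In P17 null liver it was 5565 and 4365 on the duplicates and 17538 in the second pool. The highest null array lay just below the lowest control array after normalization, as for 13.8% of probes. The deposited intensities of the groups overlapped (14414 for the lowest control and 25524 for the highest null array). Those arrays lay in different sets, and within each set the P17 null arrays were below the P17 control arrays. The second P17 null pool stood well above the first.

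At P28 the levels of Krt23 were lower in both genotypes. In P28 control liver the normalized intensity was 6572 and 4962 on the duplicates and 3235 in the second pool. In P28 null liver it was 2391, 2223 and 2265, nearly the same value on all 3 arrays. The genotypes did not overlap, with null below control as for 14.9% of probes. All 12 arrays were above the detection level, and the scanner readings of Krt23 had signal-to-noise scores from 3.44 to 26.49.

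Krt23 was below control in both null pools at both ages, but neither genotype difference passed the test. At P17 it averaged 14.39 ± 0.37 in control and 13.18 ± 1.29 in null liver (SD, n = 2 pools), a log2 difference of -1.21 (SE 0.61, 95% interval -2.64 to 0.22, limma, adjusted p = 1). The first pools differed by -1.86 and the second by -0.56. The value moved to -0.29 without the first P17 null pool and to -2.12 without the second.

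At P28 it averaged 12.07 ± 0.58 in control and 11.16 ± 0.02 in null liver, a log2 difference of -0.91 (SE 0.61, 95% interval -2.34 to 0.52, limma, adjusted p = 0.76). The pools differed by -1.31 and -0.51. Without the P28 null second pool the difference was -0.90, and it was -0.50 without the first P28 control pool and -1.32 without the second. Of the probes above the detection level, 20.0% were likewise below control in both null pools at both ages, so the shared direction is common on these arrays.

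Deposited intensities within a set of arrays gave folds of like size. Krt23 was 3.58-fold lower in null than in control liver in the first P17 pools and 1.48-fold lower in the second. At P28 it was 2.46-fold lower in the first pools and 1.42-fold lower in the second. At each age the difference in the second pools was thus the smaller one. The genotype difference at P28 minus that at P17 was 0.30 (SE 0.87, 95% interval -1.72 to 2.32, limma, adjusted p = 1.00), and 0.31 without the second P28 null pool.

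By the mean of the pools, the 2 largest of the 4 differences of Krt23 between groups were those between ages, whereas in the first pools alone the genotype difference at P17 (-1.86) was the largest. In control liver P28 was 5.00-fold below P17, a log2 difference of -2.32 (SE 0.61, limma, adjusted p = 0.39), and in null liver 4.07-fold lower (-2.02, SE 0.61, adjusted p = 0.53). Neither passed the test over all probes, in which limma called 0.176% of probes in control liver and 0.00909% in null liver. The pools gave -1.65 and -2.99 in control liver and -1.10 and -2.95 in null liver. The arrays of P28 all lay below those of P17 in control liver, as for 15.5% of probes, and in null liver, as for 14.3%.

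Only the second pools compare the ages within 1 set of arrays. In them the deposited intensity of Krt23 was 7.93-fold lower at the later age in control liver and 7.65-fold lower in null liver, the latter with the pool whose scanner file is repeated. With the set of arrays as a block the log2 differences were -3.12 in control liver (limma, adjusted p = 0.33) and -2.83 in null liver (adjusted p = 0.37). The first pools of P17 and P28 lie in different sets, so in that fit too the step between ages rests on the second pools. These values are thus not separate from the folds above. Without the second P17 null pool the difference in null liver was -1.11, without the first it was -2.94, and without the second P28 null pool it was -2.01. Among probes above the detection level 17.3% were lower at P28 in both pools of both genotypes.

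By mean level the order for Krt23 was P17 control, P17 null, P28 control and P28 null. The steps between neighbours were 1.21, 1.11 and 0.91 on the log2 scale, and the pools of P17 null and P28 control overlapped. The order held in the second pools, from 14.65 to 11.15 on the log2 scale. In the first pools P28 control, at 12.48, lay above P17 null, at 12.27.

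**Figure D3:**
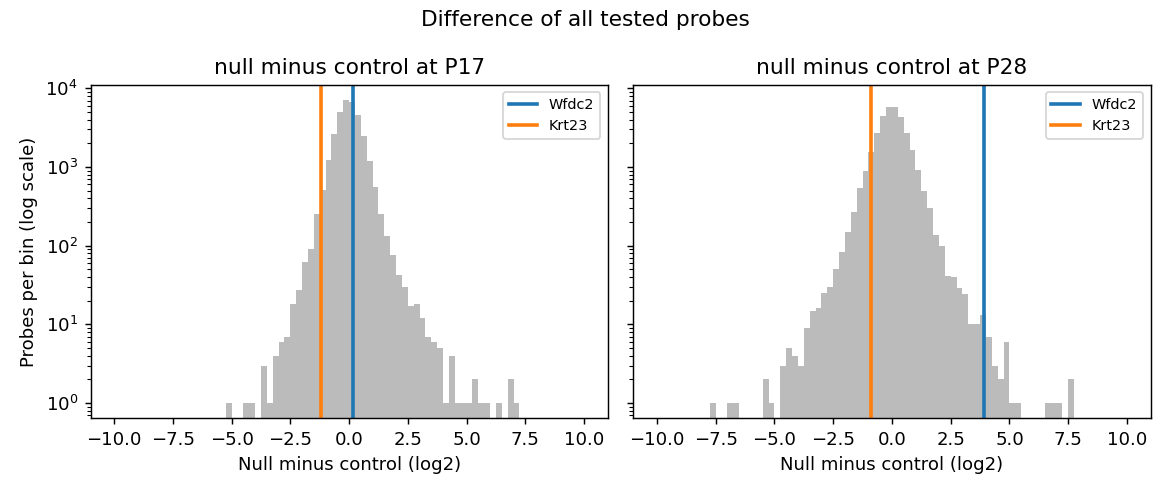
Null minus control on the log2 scale (x axis) for 33010 probes at P17 and at P28, as the number of probes per bin (y axis, log scale), with Wfdc2 and Krt23 as vertical lines. Wfdc2 lies near the centre at P17 and in the far right tail at P28, the difference for which it was picked. There 29 probes, Wfdc2 included, differed by as much or more. Krt23 lies left of the centre at both ages.

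Both probes varied more between pools of a group than most, mainly through a single group. For Wfdc2 the SD of the pools was 1.14 in P28 control liver, where first-pool arrays were under the detection level, against 0.27 to 0.59 elsewhere. For Krt23 it was 1.29 in P17 null liver, against 0.02 to 0.58 elsewhere. Over all groups the standard deviation within groups was 0.69 for Wfdc2 and 0.73 for Krt23, against a median of 0.40 over the probes above the detection level. Of those probes, 81.7% and 84.9% varied less or as much. Duplicate arrays of Wfdc2 differed by 0.78 in P17 control and by 0.87 in P28 control liver, where the median probe differed by 0.26 and 0.30. In P28 null liver, where Wfdc2 was brightest, its duplicates differed by 0.03. For Krt23 the duplicates differed by between 0.06 and 0.41.

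The patterns of Wfdc2 and Krt23 over the 8 pools were unlike each other, with r = -0.28. Among 132 named probes above the detection level, the 5 most like Wfdc2 by Pearson correlation over 8 pools were Tcim (r = 0.86), Lgals7 (0.85), Lgals1 (0.84), Cdc42ep1 (0.79) and Ear1 (0.78). The galectin genes Lgals1 and Lgals7 encode lectins that bind beta-galactosides, Cdc42ep1 an effector of the small GTPase Cdc42, and Ear1 a ribonuclease of eosinophils. At P28 null exceeded control by 2.55 for Lgals1, 2.06 for Ear1, 1.84 for Lgals7, 0.92 for Tcim and 0.90 for Cdc42ep1 on the log2 scale. These probes were picked for following Wfdc2 over the same pools, so a like direction at P28 is in part built in. Other comparisons were less alike: at P17 null exceeded control by 1.61 for Lgals1, against 0.17 for Wfdc2, and from P17 to P28 Lgals1 differed by -0.08 in control liver and Ear1 by 0.08 in null liver. Ear1 belongs to a family of near-identical genes, so its value is uncertain for the single gene.

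The 5 named probes most like Krt23 were Hsd17b10 (r = 0.83), H2bc18 (0.81), G6pc (0.81), 9130023H24Rik (0.80) and Rnaset2b (0.79). Hsd17b10 encodes a mitochondrial dehydrogenase, H2bc18 a histone of the H2B family and G6pc a liver enzyme that frees glucose from its phosphate. From P17 to P28 in control liver the log2 difference was -2.74 for G6pc and -0.82 for Hsd17b10, and between -0.54 and -0.39 for the other 3. At P28 null minus control was 0.89 for G6pc, which was opposite to Krt23, and -1.30 for H2bc18. H2bc18 and Rnaset2b have near-identical copies. These correlations describe 8 pools that share their sets of arrays, and they were picked as the highest of 132.

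Few relatives of either gene had a named probe. Of 14 genes on the list of whey acidic protein relatives 1 was measured: Wap, a milk protein, was below the detection level on all 12 arrays. Of 12 listed keratins 1 was measured, Krt23. Outside the list, and chosen after their values were seen, the hair follicle keratins Krt25 and Krt27 reached the level on 1 and 0 of 12 arrays. The erythroid marker Hba-a1, 1 of 4 on its list, was above the level on 12 arrays and differed by genotype by 0.12 (P17) and 0.13 (P28) on the log2 scale (SE 0.34 for each, limma, adjusted p = 1 and 0.97).

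**Figure D4:**
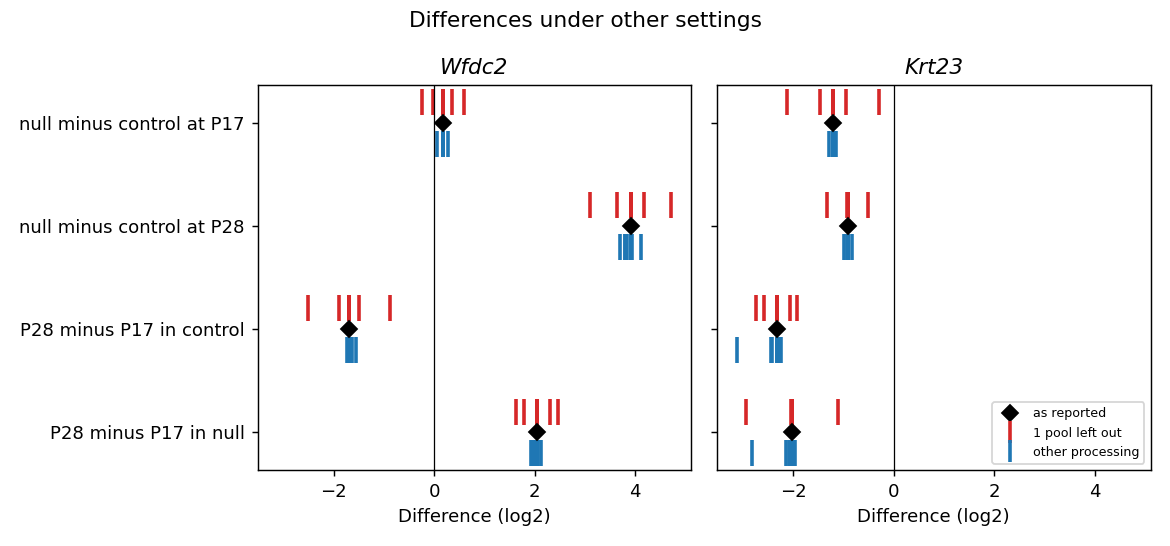
Differences on the log2 scale (x axis) of Wfdc2 and Krt23 for 4 comparisons (y axis) under other settings. Diamonds are the reported values, red ticks the values with 1 of 8 pools left out and blue ticks those under other processing. Wfdc2 at P28 stays between 3.10 and 4.72, and at P17 its values lie on both sides of 0.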

How the data were processed

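The authors deposited intensity values on a linear scale for 12 single-colour ABI1700 arrays, per the series' value table. Within each of 3 sets of arrays the deposited intensities share 1 distribution (largest gap 0.0034, smallest between sets 0.182); the method behind this is not stated in these sources. Per the file headers, the scanner exports hold for every spot a signal, a flag and a signal-to-noise score. Their 52 columns name no sample, so they were assigned to none, and the scores served only for the detection level and as readings per export.

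Intensities were quantile-normalized over 12 arrays, given a floor of 174.7 (the 5th percentile), logged to base 2 and averaged by pool. Groups were compared with limma 3.58.1 in R 4.3.3 (lmFit and eBayes, 8 pools, 4 residual degrees of freedom, Benjamini-Hochberg over 33010 probes, threshold 0.05), checked on simulated data. Precision is limited by the number of pools. A p-value here rests on how the 2 pools of a group differ, over all 4 groups, drawn toward the spread of all probes. In every group the first and second pool lay in different sets of arrays, so this spread also holds the difference between sets. First and second pools differed alike across groups (r = 0.52 to 0.649 in 6 pairs of groups), so the fit was repeated with a replicate block by pool.

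The named genes are Wfdc2, Krt23, the measured members of the lists, and the 5 named probes most correlated with each. The members and lists were chosen with earlier results of these data known. Symbols came from RefSeq.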

Additional observations from a re-analysis of the deposited data

How the results depend on the processing

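Under 11 other settings (10 for the difference between ages of the genotype effect, which always takes every pool) and with each of 8 pools left out, no difference of Krt23, and not that of Wfdc2 at P17, passed an adjusted p of 0.05. The replicate block by pool changed none of these calls (limma, adjusted p = 0.75 and 0.58 for Krt23 at P17 and P28). It could not move the Krt23 differences of -1.21 and -0.91, because every group has 1 first and 1 second pool. The detection level filter, trend and robust eBayes and the fit of only the pools compared likewise changed the spread and not the differences. Leaving out 1 pool gave -0.25 to 0.59 for Wfdc2 at P17 and -0.62 to 1.21 for the difference between ages of Krt23's genotype effect, so both changed sign. No second named probe of either gene was available.

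Counts of called probes moved more than the values of the pair. At P17 they were 2 with the deposited values, 101 with the detection level filter, 0 with the run set as a block, 5 with the replicate block, 9 with technical replicate 2 alone, 126 with trend and robust eBayes and 0 with only the pools compared, against 15. At P28 the same order gave 13, 521, 5, 246, 79, 409 and 0, and 65 with technical replicate 1 alone, against 131. The genotype effect at P28 minus that at P17 is here called the difference between ages. For it there were 3 with an offset, 15 with the filter, 2 with the replicate block and 39 with trend and robust eBayes, against 0. Between ages in control liver there were 22 with the deposited values, 153 with the filter, 2 with the run set, 151 with trend and robust eBayes and 10 with only the pools compared, against 58. In null liver there were 13 with an offset, 99 with the filter, 0 with the run set, 124 with trend and robust eBayes and 0 with only the pools compared, against 3. As settings, the filter tests fewer probes, and the run set block, the replicate block and the fit of only the pools compared leave fewer residual degrees of freedom. Why the counts moved was not tested. Where limma called 0, unadjusted p under 0.05 was reached by 2633 and 1789 probes at P17, 2192 at P28, and 3522 and 1888 between ages in null liver. Leaving out 1 pool gave 0 to 5 calls at P17, 0 to 28 at P28, 0 for the difference between ages, 13 to 40 between ages in control liver and 0 to 1 in null liver.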
